A study of Homo sapiens with 6 samples.

Results

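Cells keep zinc and copper available to enzymes and transcription factors while holding the free ions very low, and a small set of genes does this work. Of 56832 rows in each count table, 41 carried the symbol of a zinc transporter (SLC30A or SLC39A family), a metallothionein (MT1 or MT2), the zinc sensor MTF1, or a copper gene (SLC31A1, SLC31A2, ATP7A, ATP7B, ATOX1, CCS). The 32 rows with at least 10 counts summed over all libraries are the members described here, and 30 of them passed the filter on low counts and were tested. Apart from this floor on counts, members were chosen by symbol, with earlier results of these data known.

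Every library came from GLO1 knockout (GLO1-/-) HEK293T cells, which are a line derived from human embryonic kidney, so by their labels both groups lack the enzyme that starts the clearance of methylglyoxal (MGO), a reactive by-product of glycolysis. The MGO group held 3 libraries of knockout cells exposed overnight to 0.2 mM MGO, numbered 1, 3 and 4. The untreated group held 3 libraries of the same knockout cells without MGO, numbered 1, 2 and 4. Poly(A) RNA was sequenced. The labels do not name the clone or clones behind the knockout, and no library of cells with intact GLO1 was analysed here. Nor do they state that each library was grown as its own culture, and the p-values below reflect the spread between these libraries alone, which may be technical.

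As background, SLC30A proteins (ZnT) move zinc out of the cytosol, either across the plasma membrane or into organelles, and SLC39A proteins (ZIP) move it into the cytosol. Metallothioneins are small cysteine-rich proteins that bind zinc and copper, and MTF1 switches on their genes by binding short metal response elements when cytosolic zinc is high. Copper enters mainly through SLC31A1, is handed on by small chaperones, and leaves through the pumps ATP7A and ATP7B.

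Depth was split exactly as treatment was, with 19195920 to 21544749 counts in MGO libraries and 41002134 to 45910040 counts in untreated libraries. Levels are therefore given as TMM-scaled CPM, that is, counts scaled to a common library total with a factor that sets the bulk of genes level, and a change is always one relative to other transcripts. In bulk RNA, fewer cells of a type and less RNA per cell cannot be told apart. GLO1 transcripts were counted in every library, at 140 ± 5.30 CPM in MGO libraries and 48.1 ± 2.57 CPM in untreated libraries (SD, n = 3 each), and whole-gene counts do not check a small lesion. All 7 genes listed as marks of HEK293 cells were detected, of which 3 rose (VIM, KRT8, KRT18) and 4 fell (PAX2, CDH2, NEFL, NEFM). KRT8 averaged 824 CPM in MGO and 525 CPM in untreated libraries, and NEFL 38.1 CPM in MGO and 165 CPM in untreated libraries. Of 11 marks of blood, endothelial, fibroblast and liver cells, COL1A1 alone passed 45 counts in any library, and their summed level was 12.9 to 13.9 CPM in MGO and 24.4 to 25.2 CPM in untreated libraries. Without COL1A1 these sums were 1.14 to 2.32 CPM in MGO and 1.62 to 2.13 CPM in untreated libraries. The share of counts on mitochondrial rows was 5.34% to 8.17% in MGO and 4.20% to 5.42% in untreated libraries. In both groups it was highest in library 1.

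Across the tested members, most transcripts were lower in MGO cells, with the sensor MTF1, the exporters SLC30A1 and SLC30A7 and the endoplasmic reticulum transporter SLC39A7 as the exceptions among called genes. Of 30 members, 4 were called higher, 20 lower and 6 neither (edgeR quasi-likelihood test, adjusted p under 0.05 over 17415 genes). Over all tested genes, 41.8% rose and 41.2% fell, 83.1% in all. The median log2 fold change (MGO over untreated) was -0.42 for the members and 0.01 for all tested genes. At least 2-fold changes were seen in 6 members that fell and in 0 that rose, against 16.7% and 19.8% of all tested genes. The MGO libraries lay wholly above or wholly below the untreated ones for 24 members (80%), against 83.5% of all tested genes. The median coefficient of variation of the members was 5.31% between MGO libraries and 3.13% between untreated libraries. Over all tested genes it was 7.33% and 4.28%, so the wider spread in MGO was not particular to the members.

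**Figure D1:**
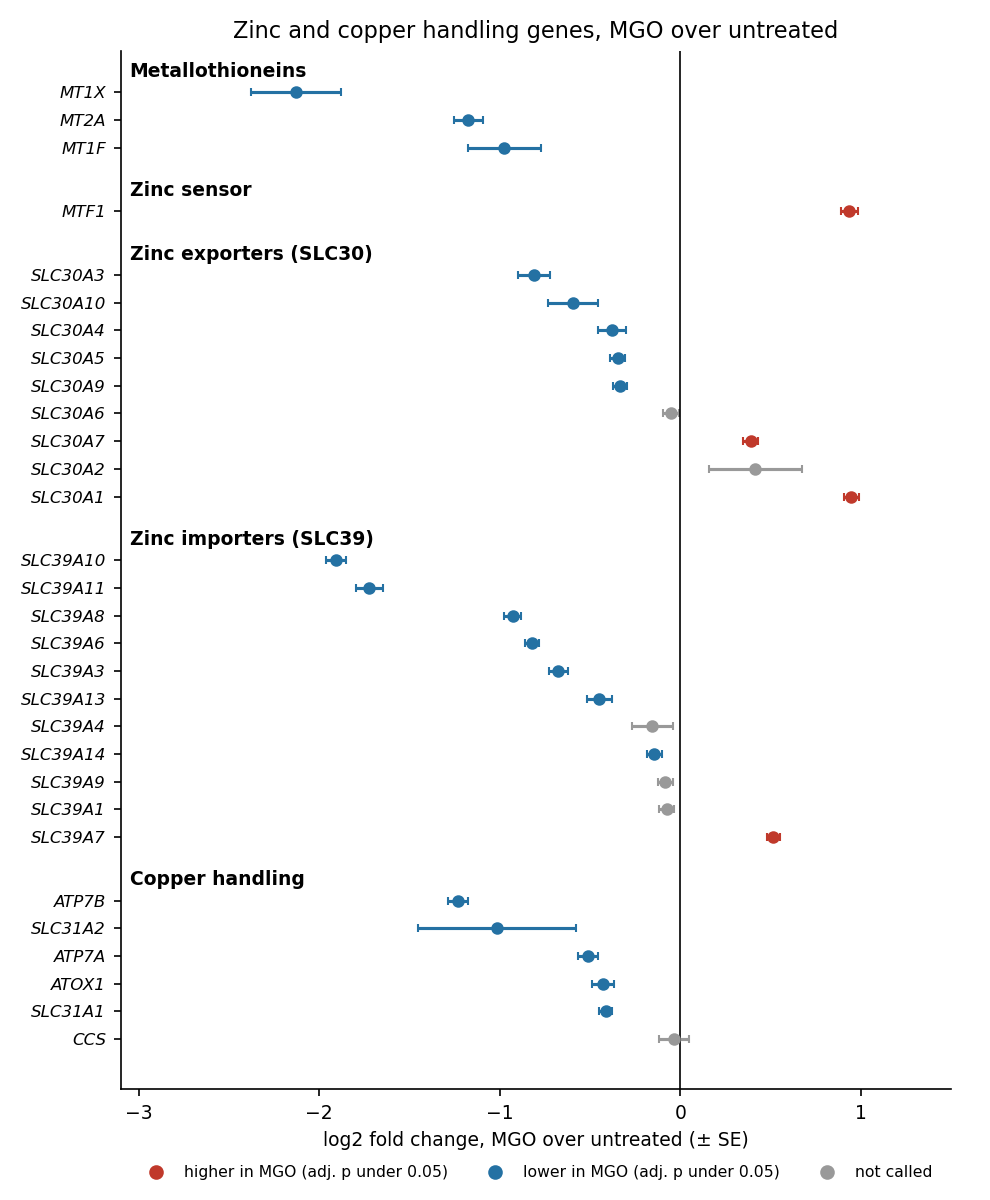
Log2 fold change (MGO over untreated, horizontal axis) with its standard error for the 30 tested members, grouped by role. Points in red are the 4 members called higher in MGO, points in blue the 20 called lower and points in grey the 6 not called.

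Apart from MT2A, the metallothioneins were sparsely expressed in these cells. All 3 metallothioneins that could be tested, MT2A, MT1X and MT1F, were called lower, where 41.2% of all tested genes were. The 10 MT1 and MT2 rows lie in a cluster on chromosome 16 (hg38, from 56608199 at the start of MT2A to 56684196 at the end of MT1X). MT2A stands at its first end, MT1X at its last and MT1F between them. The rows MT1A, MT1B, MT1G, MT1H, MT1L and MT1M had 0 counts in all 6 libraries, and MT1E had 1 count, in MGO library 4. A count of 0 allows up to 3 counts, or 0.143 to 0.166 CPM in MGO libraries and 0.0627 to 0.0705 CPM in untreated libraries, which covers counting error only. Metallothionein sequences are close copies of each other, and the sources used here do not give how shared reads were counted, so each value is uncertain as to its copy.

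MT2A, the most abundant of them, stood at 11.5, 10.1 and 8.60 CPM in MGO libraries 1, 3 and 4, and at 21.3, 23.6 and 22.9 CPM in untreated libraries 1, 2 and 4. Every MGO library was far below every untreated one. Its log2 fold change was -1.17 (SE 0.0793, 2.26-fold lower, adjusted p = 1.54e-14, edgeR). MT1X stood at 0.939, 0.376 and 0.380 CPM in MGO, against 2.63, 2.47 and 2.21 CPM in untreated libraries, with no overlap (4.38-fold lower; log2 scale -2.13, SE 0.249; adjusted p = 3.28e-09). These levels rest on 17, 7 and 8 counts in MGO libraries and 122, 118 and 94 counts in untreated libraries. MT1F stood at 1.60, 1.18 and 0.903 CPM in MGO, against 2.24, 2.15 and 2.80 CPM in untreated libraries, and was 1.96-fold lower in MGO (log2 scale -0.97, SE 0.202; adjusted p = 5.96e-05). In the annotation 18.1% of the exon bases of MT1X are shared with another gene on its strand.

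In all 3 genes MGO library 1 was the highest of its group, as it was in its mitochondrial share. Whether the 2 are linked was not tested. Without that library the falls were larger, at log2 fold changes of -1.30 for MT2A, -2.70 for MT1X and -1.23 for MT1F. Summed over the 3 genes, metallothionein transcripts came to 11.9 ± 2.08 CPM in MGO and 27.4 ± 1.09 CPM in untreated libraries (SD, n = 3 each). MT2A made up 85.2% ± 2.87 of their counts in MGO and 82.4% ± 1.16 in untreated libraries, groups that overlap. MT1X made up 4.58% ± 1.85 in MGO and 8.90% ± 1.07 in untreated libraries, and its highest MGO share (6.69%) was below its lowest untreated share (7.92%).

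**Figure D2:**
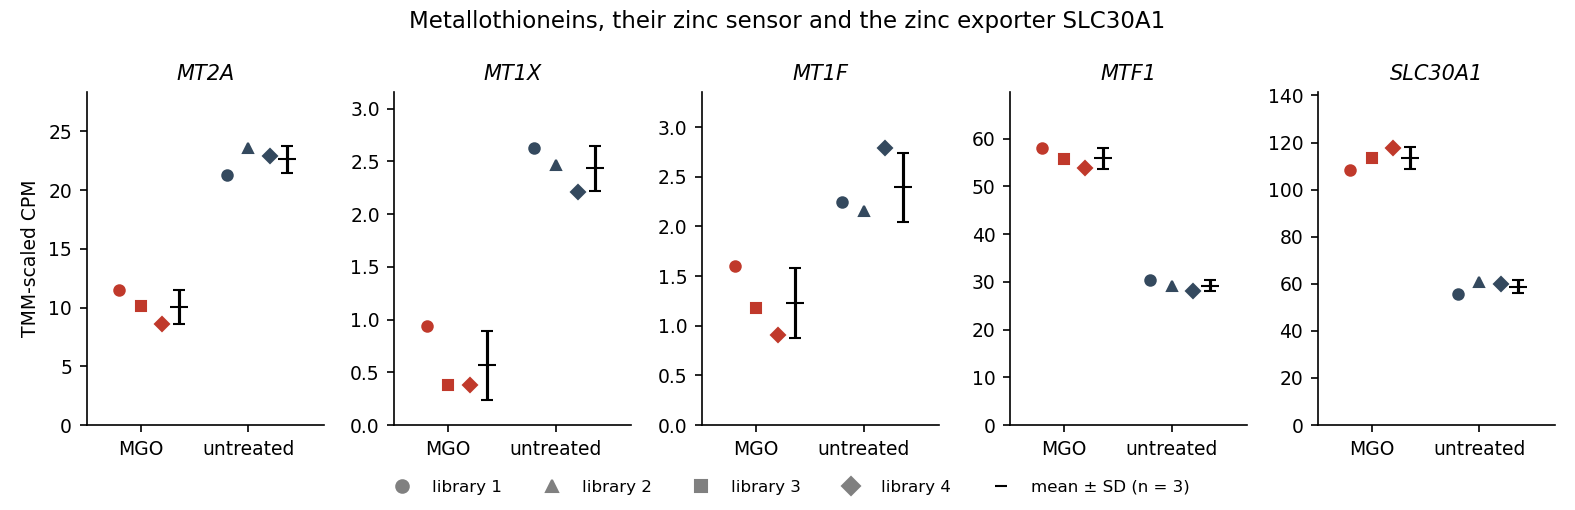
TMM-scaled CPM (vertical axes, each from 0) of MT2A, MT1X, MT1F, MTF1 and SLC30A1 in the 3 MGO and 3 untreated libraries, with symbols for the library number and bars for the mean ± SD. The 3 metallothioneins are lower in every MGO library, and MTF1 and SLC30A1 are higher in every MGO library.

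Their sensor went the other way. MTF1, the zinc finger factor that binds metal response elements (chromosome 1, 37809567 to 37859620, minus strand), stood at 58.1, 55.8 and 53.7 CPM in MGO libraries, against 30.3, 29.1 and 28.1 CPM in untreated libraries. Every MGO library was far above every untreated one, a 1.91-fold rise (log2 scale 0.94, SE 0.0489; adjusted p = 1.40e-17, edgeR). SLC30A1, the zinc exporter of the plasma membrane and a known MTF1 target (chromosome 1, 211571568 to 211578742, minus strand), stood at 109, 113 and 118 CPM in MGO libraries, against 55.9, 60.6 and 60.0 CPM in untreated libraries. The groups lay far apart, a 1.93-fold rise (log2 scale 0.95, SE 0.0418; adjusted p = 1.73e-19). SLC30A1 and the metallothioneins, which share MTF1 as a known activator, thus lay on opposite sides of the untreated libraries.

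The promoter windows of MT2A, MT1X and SLC30A1 are shown because these genes have a known activator in common and went in different directions. The windows are RefSeq sequences of GRCh38.p14, from 250 bases before to 50 bases after the start of transcription, written 5′ to 3′ on the gene's strand, and 31 of the 41 symbols had such a window. Capitals mark matches to the core of the metal response element, searched as TGCACNC and TGCGCNC on both strands. MT2A is at chr16:56608334-56608633 (plus strand), MT1X at chr16:56682220-56682519 (plus strand) and SLC30A1 at chr1:211579112-211579411 (minus strand).
MT2A: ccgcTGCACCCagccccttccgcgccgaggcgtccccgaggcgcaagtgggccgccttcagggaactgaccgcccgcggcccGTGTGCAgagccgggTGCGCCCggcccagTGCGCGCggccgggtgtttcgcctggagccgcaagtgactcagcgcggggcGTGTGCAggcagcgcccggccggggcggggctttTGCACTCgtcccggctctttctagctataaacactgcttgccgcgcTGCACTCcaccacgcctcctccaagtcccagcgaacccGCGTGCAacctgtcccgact
MT1X: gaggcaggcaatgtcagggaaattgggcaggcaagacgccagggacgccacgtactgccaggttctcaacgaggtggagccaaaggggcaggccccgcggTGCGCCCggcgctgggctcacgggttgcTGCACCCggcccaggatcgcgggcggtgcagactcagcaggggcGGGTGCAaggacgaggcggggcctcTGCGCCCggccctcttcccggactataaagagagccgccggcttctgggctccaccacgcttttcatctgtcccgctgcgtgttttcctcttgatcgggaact
SLC30A1: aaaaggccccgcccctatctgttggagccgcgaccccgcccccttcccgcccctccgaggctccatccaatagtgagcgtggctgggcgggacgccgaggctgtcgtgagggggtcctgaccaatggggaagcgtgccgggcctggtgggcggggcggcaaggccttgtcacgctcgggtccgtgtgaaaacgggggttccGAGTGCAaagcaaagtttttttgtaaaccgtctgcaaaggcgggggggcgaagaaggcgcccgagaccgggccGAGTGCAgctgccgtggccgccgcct

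The window of MT2A held 8 matches, none overlapping another, of which 6 were TGCACNC and 2 TGCGCNC. That of MT1X held 4, and that of SLC30A1 held 2, both TGCACNC on the opposite strand, at bases -49 to -43 and 25 to 31 from the RefSeq start. The gene coordinates, which came from GENCODE, place the start of SLC30A1 at 211578742. Its window, 211579112 to 211579411, lies wholly upstream of that base. For MT2A the GENCODE start is 56608199, and the window, 56608334 to 56608633, lies wholly downstream. That of MT1X, 56682424, is inside its window. Sequence around the GENCODE starts of SLC30A1 and MT2A was not searched, so their matches are counted for the RefSeq starts only. Among 35116 promoter windows of the same length, 29.6% held at least 1 match, 8.60% at least 2, 0.601% at least 4 and 0.0199% at least 8. MT1H also held 8 matches and MT1B 3, although neither gene had a count here. The window of MTF1 held 0, which says only that these letters are not in it. A match is a run of letters, not a measured site of binding.

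**Figure D3:**
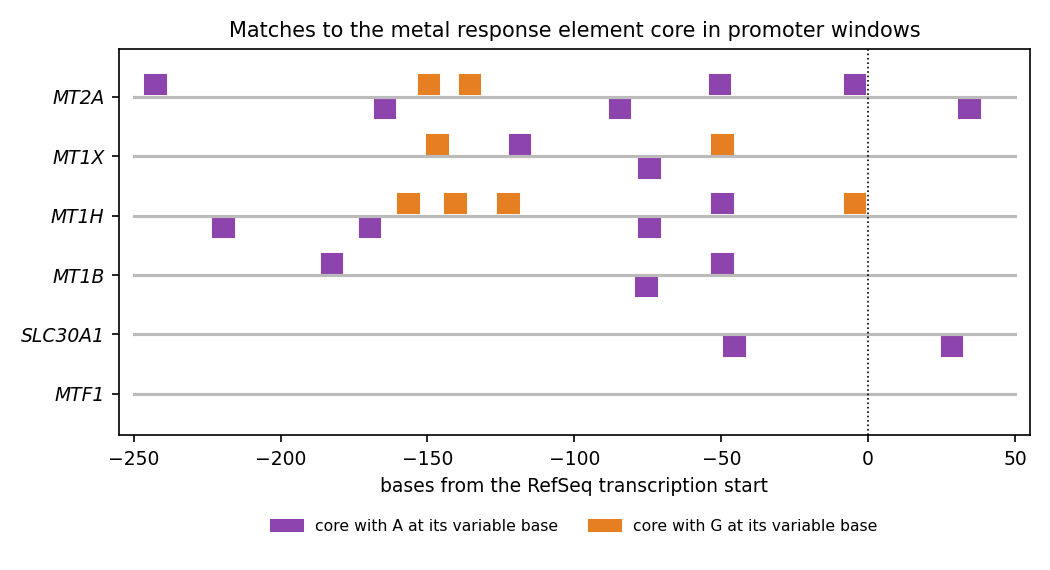
Positions of matches to the metal response element core (boxes, in bases from the RefSeq start of transcription) in the promoter windows of 6 genes, in purple for TGCACNC and orange for TGCGCNC, above a line on the gene's strand and below it on the opposite strand. MT2A and MT1H hold 8 matches each, MT1X 4, MT1B 3, SLC30A1 2 and MTF1 0.

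The zinc exporters changed by less than 2-fold, with SLC30A1 the furthest from its untreated level. Of 9 tested SLC30A genes, 2 were called higher, 5 lower and 2 neither, with a median of -0.34 on the log2 scale, where 83.1% of all tested genes were called. SLC30A7, which loads zinc into the Golgi, rose (log2 fold change 0.39, adjusted p = 7.71e-10), with 73.0 to 79.5 CPM in MGO and 57.4 to 59.3 CPM in untreated libraries. SLC30A5, which works in the same early secretory compartments as a heterodimer with SLC30A6, fell slightly (log2 fold change -0.35, adjusted p = 6.94e-09), and SLC30A6 itself did not pass (log2 fold change -0.05, SE 0.0441, adjusted p = 0.257). Its groups overlapped, at 58.0 to 63.0 CPM in MGO and 61.0 to 64.5 CPM in untreated libraries. Without MGO library 4 it was called lower (log2 fold change -0.13, adjusted p = 0.0127).

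SLC30A3, known for loading zinc into synaptic vesicles, had the largest fall among the tested exporters. It stood at 7.57, 6.07 and 7.32 CPM in MGO libraries, against 12.2, 11.6 and 13.1 CPM in untreated libraries, without overlap (log2 fold change -0.81, SE 0.0904, adjusted p = 1.29e-09). SLC30A10, which mainly exports manganese, stood at 2.32, 2.74 and 2.76 CPM in MGO, against 4.16, 4.03 and 3.64 CPM in untreated libraries (log2 fold change -0.60, SE 0.137, adjusted p = 0.000213). The other calls were small falls of SLC30A4, a transporter of endosomal vesicles (log2 fold change -0.38), and SLC30A9, linked to zinc export from mitochondria (-0.34). SLC30A2, a vesicle transporter needed for zinc in milk, was scarce at 0.884 to 1.29 CPM in MGO and 0.611 to 1.02 CPM in untreated libraries, and did not pass (log2 fold change 0.41, SE 0.259, adjusted p = 0.137). SLC30A8, the exporter of insulin granules, had 1 count in all, in MGO library 3.

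The zinc importers showed the largest falls among the transporters. Of 11 tested SLC39A genes, 1 was called higher, 7 lower and 3 neither, with a median of -0.45 on the log2 scale, against 41.8% rising and 41.2% falling over all genes. SLC39A10, a plasma membrane importer whose mouse gene is repressed by zinc through MTF1 (chromosome 2, 195575977 to 195737702), stood at 15.8, 17.3 and 15.7 CPM in MGO libraries, against 59.2, 63.0 and 60.6 CPM in untreated libraries. The groups lay nearly 4-fold apart with little spread (log2 fold change -1.91, SE 0.0559, 3.75-fold lower, adjusted p = 3.68e-24). SLC39A6, the close relative with which it forms a complex at the plasma membrane, stood at 95.0, 94.8 and 94.1 CPM in MGO, against 166, 169 and 166 CPM in untreated libraries. It fell less than SLC39A10 (log2 fold change -0.82, SE 0.0380, adjusted p = 5.93e-19). That difference between the 2 genes was not tested.

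SLC39A11, the human member of the gufA branch of the family, stood at 7.29, 7.35 and 7.17 CPM in MGO, against 24.5, 23.2 and 24.3 CPM in untreated libraries. Libraries of a group were nearly identical, and the fall was 3.30-fold (log2 fold change -1.72, SE 0.0735, adjusted p = 6.89e-20). SLC39A8, an importer of zinc and manganese, stood at 32.1, 32.3 and 32.2 CPM in MGO, against 63.1, 61.2 and 59.5 CPM in untreated libraries (log2 fold change -0.93, SE 0.0474, adjusted p = 7.38e-18). SLC39A3, another importer of the plasma membrane, stood at 23.7, 24.2 and 23.6 CPM in MGO, against 39.3, 36.7 and 38.2 CPM in untreated libraries (log2 fold change -0.68, SE 0.0539, adjusted p = 5.97e-13). For each of these 3 importers every MGO library was below every untreated one.

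The importer that rose was SLC39A7, which releases zinc from the endoplasmic reticulum into the cytosol. It ranged from 209 to 213 CPM in MGO and from 145 to 149 CPM in untreated libraries (log2 fold change 0.51, SE 0.0370, adjusted p = 4.91e-14). Of its annotated exon bases 8.58% overlap RXRB on the other strand, and the sources used here do not give the strand setting. SLC39A13, an importer from intracellular stores needed for connective tissue, fell by 0.45 on the log2 scale (adjusted p = 3.89e-07). SLC39A14, which carries zinc, manganese and iron, was lower by a small margin (log2 fold change -0.14, adjusted p = 0.00295). Its call was lost when genes under 1 CPM in any library were left out (adjusted p = 0.114), with untreated libraries thinned to MGO depth (0.050) and with a term for the replicate number (0.0750). Over all alternatives its adjusted p ranged from 3.83e-07 to 1, the highest in a test against a fold of 1.5.

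SLC39A1, SLC39A9 and SLC39A4 did not pass the test. SLC39A1, a widely expressed plasma membrane importer, stood at 124 to 136 CPM in MGO and 135 to 137 CPM in untreated libraries (log2 fold change -0.08, SE 0.0400, adjusted p = 0.0784). In the annotation 69.1% of its exon bases are shared with other genes. SLC39A9, of the Golgi and cell surface, stood at 114 to 119 CPM in MGO and 118 to 129 CPM in untreated libraries (log2 fold change -0.08, SE 0.0406, adjusted p = 0.0550). Without MGO library 1 both were called lower (adjusted p = 0.000350 for SLC39A1 and 0.00251 for SLC39A9), as they were without MGO library 4 (0.0275 and 0.00844). SLC39A9 was also called lower without untreated library 4 (adjusted p = 0.0164). SLC39A4, the importer of intestinal uptake, stood at 4.37 to 5.74 CPM in MGO and 5.43 to 5.85 CPM in untreated libraries (log2 fold change -0.16, SE 0.112, adjusted p = 0.196), and without MGO library 3 it was called lower (log2 fold change -0.28, adjusted p = 0.0424). SLC39A2 and SLC39A5 had 18 and 20 counts over all libraries and were not tested, and SLC39A12 had 0.

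**Figure D4:**
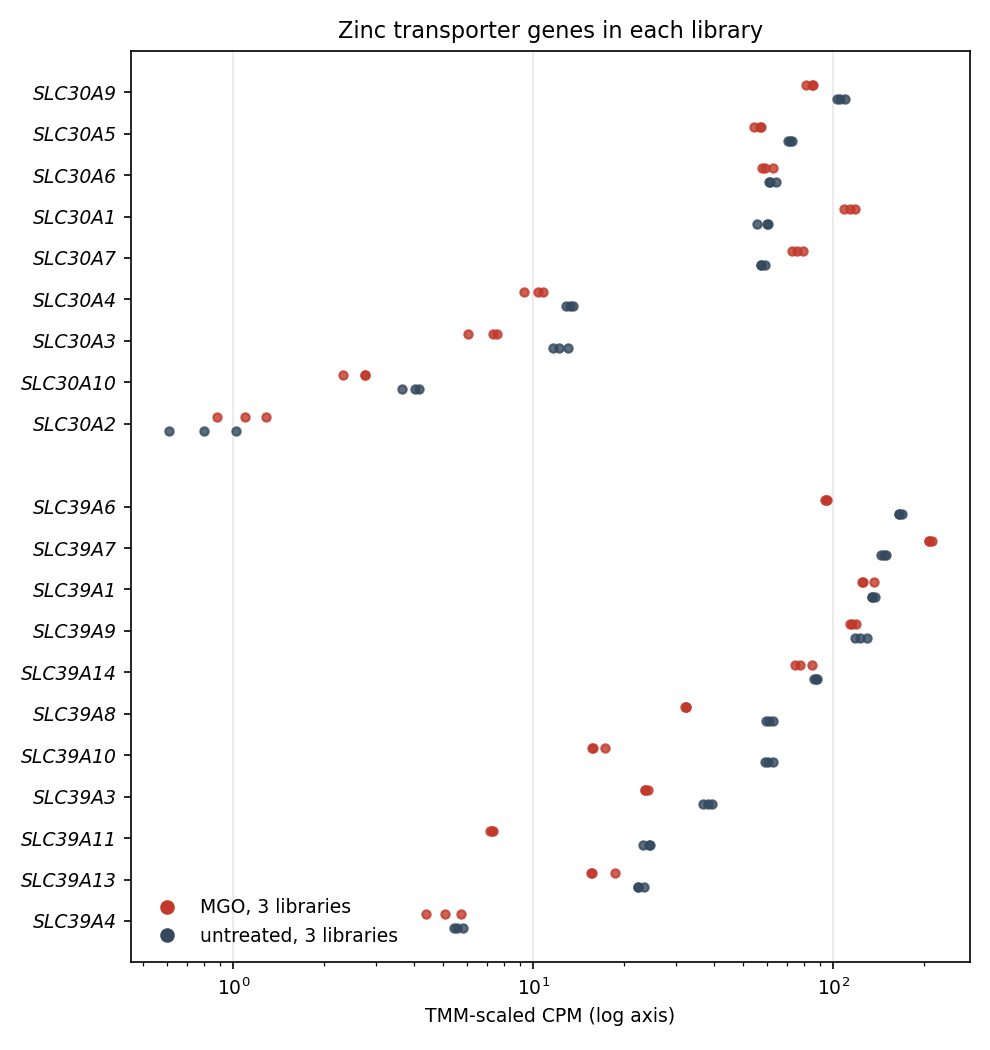
TMM-scaled CPM (log axis) of the 20 tested zinc transporter genes, with the 3 MGO libraries in red above the 3 untreated libraries in dark blue. SLC30A1, SLC30A7 and SLC39A7 are shifted to higher levels in MGO, and SLC39A10 and SLC39A11 show the widest shifts to lower levels.

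The copper genes fell or did not pass. Of 6 tested, 5 were called lower, 0 higher and 1 neither, with a median of -0.47 on the log2 scale, against 41.2% lower and 41.8% higher over all genes. SLC31A1, the main copper importer of the plasma membrane (CTR1), stood at 72.6, 72.3 and 75.3 CPM in MGO libraries, against 97.6, 99.3 and 96.7 CPM in untreated libraries, without overlap (log2 fold change -0.41, SE 0.0385, adjusted p = 2.21e-11). Its relative SLC31A2, which acts on copper in endosomes, was near the limit of detection. It stood at 0.221, 0.268 and 0.143 CPM in MGO, from 3 to 5 counts, against 0.345, 0.418 and 0.517 CPM in untreated libraries (log2 fold change -1.02, SE 0.438, adjusted p = 0.0335). SLC31A2 was tested in 13 of 18 alternatives, and its call was lost in 5 of them. Among these were DESeq2 (adjusted p = 0.120) and the fits without MGO library 1 (0.0583) or MGO library 4 (0.141). Another was the fit with a term for the replicate number (0.0656). Its adjusted p over the 13 alternatives ranged from 0.0189 to 0.141. In the annotation 63.1% of the exon bases of SLC31A2 overlap FKBP15 on the other strand.

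The copper pumps fell unequally. ATP7B, the pump that is defective in Wilson disease (chromosome 13, 51930436 to 52012125), stood at 19.5, 18.7 and 18 CPM in MGO libraries, against 45.6, 43.4 and 42.7 CPM in untreated libraries. The groups lay far apart (log2 fold change -1.23, SE 0.0563, 2.35-fold lower, adjusted p = 4.31e-19). ATP7A, the pump that is defective in Menkes disease, stood at 33.7, 28.7 and 30.2 CPM in MGO, against 42.2, 45.0 and 44.5 CPM in untreated libraries, also without overlap (log2 fold change -0.51, SE 0.0546, adjusted p = 5.29e-10). Whether the pumps differ from each other in their fall was not tested. Per kilobase of principal transcript, ATP7B stood at 2.82 ± 0.113 CPM in MGO and 6.61 ± 0.226 CPM in untreated libraries, and ATP7A at 3.64 ± 0.301 CPM in MGO and 5.17 ± 0.177 CPM in untreated libraries (SD, n = 3 each). By this measure, ATP7A was the more abundant of the pair in MGO libraries, and ATP7B in untreated libraries. Before division by length, each pump averaged 43.9 CPM in untreated libraries, so the order there rests on the transcript lengths used.

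Of the copper chaperones, ATOX1, which hands copper to both pumps, fell and CCS, which loads copper into SOD1, did not pass. ATOX1 stood at 23.4, 20.2 and 20.1 CPM in MGO, against 28.5, 29.5 and 27.7 CPM in untreated libraries (log2 fold change -0.43, SE 0.0610, adjusted p = 1.42e-07). CCS stood at 11.7, 12.5 and 9.50 CPM in MGO, against 11.5, 11.7 and 11 CPM in untreated libraries, so that the groups overlapped (log2 fold change -0.04, SE 0.0845, adjusted p = 0.696).

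**Figure D5:**
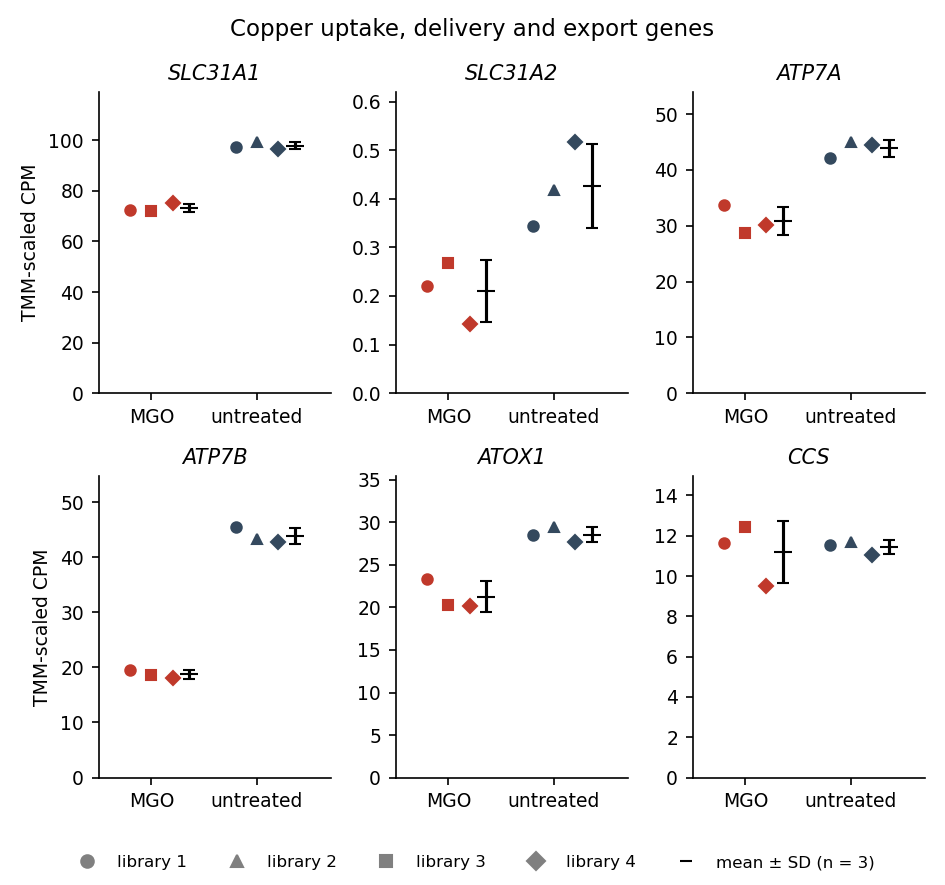
TMM-scaled CPM (vertical axes, each from 0) of the 6 copper genes in the 3 MGO and 3 untreated libraries, with symbols for the library number and bars for the mean ± SD. The groups are apart for each gene other than CCS, and SLC31A2 is below 0.6 CPM throughout.

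Compared per kilobase of principal transcript, the members spanned a wide range of levels. SLC39A7 was the highest of them, at 92.2 ± 0.976 CPM per kilobase in MGO and 64.6 ± 1.06 in untreated libraries. It was followed in MGO libraries by SLC39A1 (54.5 ± 2.79), ATOX1 (36 ± 3.11), SLC39A9 (32.6 ± 0.816) and SLC39A6 (28.9 ± 0.139), and in untreated libraries by SLC39A1 (57.5 ± 0.600), SLC39A6 (51.0 ± 0.637), ATOX1 (48.4 ± 1.5) and SLC39A9 (34.6 ± 1.6). In MGO libraries ATOX1 and SLC39A9 differed by about the SD of ATOX1. The order depends on the transcript lengths used, which for ATOX1 was 591 bases where its annotated exon bases come to 5239. For SLC39A1, 69.1% of exon bases are shared with other genes. Among tested exporters, SLC30A1 ranked first in MGO libraries at 20.7 ± 0.854 CPM per kilobase, and in untreated libraries, at 10.7 ± 0.471, it was below SLC30A9 (17 ± 0.506), SLC30A5 (16.5 ± 0.292), SLC30A7 (12.6 ± 0.239) and SLC30A6 (12.2 ± 0.367). MT2A, per kilobase the most abundant metallothionein, stood at 12.8 ± 1.84 in MGO and 28.8 ± 1.5 in untreated libraries. Its length was taken as 786 bases from GENCODE, where the gene starts upstream of the whole RefSeq window. A shorter transcript would give higher values, so the place of MT2A among the members also depends on the length used.

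Other genes of zinc and copper biology, taken from a list of 61 rows that held none of the members, also went both ways. Of 42 tested, 13 were called higher, 24 lower and 5 neither, and the median on the log2 scale was -0.31. Over all tested genes 41.8% were called higher and 41.2% lower, a background that also holds for the counts by role. The 6 called with the smallest p are named here. AOC2, a copper amine oxidase of the retina, stood at 21.3, 22.8 and 20.7 CPM in MGO, against 3.77, 3.28 and 3.50 CPM in untreated libraries (6.13-fold higher, adjusted p = 3.49e-23). It neighbours its close relative AOC3, so shared reads are possible. AOC3 was also called higher, at 8.39 CPM in MGO and 1.58 CPM in untreated libraries (5.30-fold, adjusted p = 1.24e-17, edgeR). SCO1, which delivers copper to cytochrome oxidase in mitochondria, stood at 124, 121 and 123 CPM in MGO, against 69.6, 68.5 and 71.8 CPM in untreated libraries (1.75-fold higher, adjusted p = 8.07e-19). For AOC2 and SCO1 every MGO library was above every untreated one. STEAP3, a metalloreductase, fell to 12.5, 10.7 and 11.1 CPM in MGO, against 36.9, 37.6 and 38.9 CPM in untreated libraries (adjusted p = 2.33e-21), and all 3 tested STEAP genes fell. CA12, a zinc enzyme of the cell surface, fell to 3.65, 3.38 and 3.04 CPM in MGO, against 15.2, 15.5 and 16.8 CPM in untreated libraries (4.72-fold lower, adjusted p = 1.91e-19). For STEAP3 and CA12 the groups lay far apart. LOXL1, a copper enzyme that crosslinks matrix proteins, fell to 7.35, 8.59 and 6.75 CPM in MGO, against 24.0, 24.6 and 23.8 CPM in untreated libraries (log2 fold change -1.68, adjusted p = 4.91e-19). PAM, a copper enzyme that amidates peptides, fell to 79.7, 75.2 and 76.9 CPM in MGO, against 137, 133 and 138 CPM in untreated libraries (log2 fold change -0.82, adjusted p = 1.83e-18).

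By role, mitochondrial copper delivery had 3 genes that rose, 3 that fell and 1 that did not pass, and copper enzymes had 3 that rose and 7 that fell. Copper regulators had 1 that rose, 3 that fell and 1 that did not pass, and adaptors of the copper pumps had 1 that rose and 3 that fell. Among other zinc transport and zinc chaperone genes 4 rose and 3 fell. Among alkaline phosphatases and carbonic anhydrases, which are zinc enzymes, 1 rose, 2 fell and 3 did not pass. The remaining 7 rows, MT3, MT4 and metallothionein pseudogenes, had at most 5 counts in any library and were not tested.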

How the data were processed

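Poly(A) RNA-seq of 6 HEK293T libraries was used, 3 with MGO and 3 untreated. The authors deposited gene-level counts, whole numbers with unequal totals and so taken as not normalized. Per the submitters' processing notes, Trim Galore, STAR 2.4, Picard and HTSeq 0.9.1 were used with hg38; for their settings, the annotation and the use of strand, nothing is given in the sources used here.

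Groups came from the sample titles. Counts were compared with edgeR 4.0.16 in R 4.3.3 (filterByExpr, TMM, robust glmQLFit, two-sided glmQLFTest, 4 residual degrees of freedom), with Benjamini-Hochberg adjustment over 17415 genes at 0.05. The SE is the log2 fold change divided by the square root of F. Coordinates, exon overlap and principal transcript lengths came from GENCODE 29 (GRCh38), and promoters from RefSeq. The test was tried on simulated data in which few genes changed and the spread came from the untreated libraries. Most tested genes were called in these data, so that trial does not show how the test performs here.

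Other settings tried were scaling by RLE, by the upper quartile or by depth alone, DESeq2 1.42.0, limma 3.58.1 voom and no robust shrinkage. Low counts were also filtered only at 10 counts in total, or at 1 CPM in every library. A test against a fold of 1.5, thinned untreated libraries, libraries left out and a term for the replicate number were tried too. Within groups, a chi-square per degree of freedom over genes was 1.88 to 14.7, so no libraries agreed within sampling noise. In each group it was lowest for the pair without library 1, at 3.43 in MGO and 1.88 in untreated libraries. The labels mention no molecular identifiers, so reads may include PCR copies, and floors cover counting error only.

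The members, lists and tests were chosen with earlier results of these data known. Values by library are given for the metallothioneins, MTF1, the copper genes and zinc transporters called with at least a 1.5-fold change, with the 6 smallest p of the related genes; other members are given by range or log2 fold change.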

Additional observations from a re-analysis of the deposited data

How the results depend on the processing

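Of 532 recomputed log2 fold changes of single members, 492 kept their direction and side of the threshold, 19 lost the call, 17 gained one and 4 reversed. The cause of the reversals was not tested, and they belong to members without a call: CCS turned to 0.0285 with at least 1 CPM in every library, to 0.00787 with thinned untreated libraries and, between -0.148 and 0.0402 as each library was left out, to 0.0402 without MGO replicate 4, and SLC30A6 to 0.0113 with at least 1 CPM in every library. Tested against a fold of 1.5, 2 members were higher and 10 lower, 9 related genes were higher and 15 lower, and 4363 of all genes higher and 3942 lower. Leaving out each library in turn gave 4 members higher throughout and 19 to 22 lower. Over genes tested in both fits, the median difference in log2 fold change from the reported one was -0.11 with library size as the only scaling. It was also -0.11 with a filter of only 10 counts in total. Each of these settings gave 24 members lower, the added ones being SLC30A6, SLC39A1, SLC39A4 and SLC39A9. With the replicate number as a block, 4 members were higher and 18 lower. The main fit had no such block, since no label says that a number marks a batch. Deviations from the group mean correlated across genes at 0.0204 between libraries numbered 1 and at -0.00780 between those numbered 4. These correlations weigh all 17415 tested genes alike, low counts included, so they do not decide whether the numbers pair libraries. In both groups library 1 had the highest mitochondrial share, and whether this reflects a shared batch was not tested. DESeq2 gave 4 higher and 19 lower. Few counts in MGO libraries limit the precision for MT1X, MT1F, SLC30A2 and SLC31A2.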

Other observations

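The CBWD (ZNG1) rows encode zinc chaperones that are near copies of each other, so counts may be split between them. They were singled out after their values were seen. CBWD6 stood at 7.90 ± 0.439 CPM in MGO and 1.28 ± 0.117 CPM in untreated libraries, CBWD3 at 3.41 ± 0.508 CPM in MGO and 0.571 ± 0.103 CPM in untreated libraries, both called higher, and CBWD5 also rose (log2 fold change 0.93, adjusted p = 8.22e-12). CBWD1, the most abundant of them, fell (log2 fold change -0.25, adjusted p = 6.54e-05, edgeR), as did CBWD2 (-0.17, adjusted p = 0.00761).

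SLC39A2, an importer described in skin, was left out by the filter. It had 3, 4 and 4 counts in MGO libraries and 4, 1 and 2 counts in untreated libraries. With a filter of only 10 counts in total, its log2 fold change was 1.71 (SE 0.764, adjusted p = 0.0397, edgeR), and that of SLC39A5 was 1.09 (adjusted p = 0.182).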
